A study of Mus musculus with 9 samples.

Results

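Mfsd2a, Cd36 and Abcg1, 3 of the 21631 mouse protein-coding genes on chromosomes 1 to 19 and X, encode membrane proteins that move fatty acids and sterols, and their H3R2me2a peaks are described here. They were chosen by name, Mfsd2a because the series title places it in a signaling axis with PRMT6, and peaks were counted in each gene with 5 kb and with 50 kb either side. H3R2me2a, the asymmetric dimethylation of arginine 2 of histone H3, was measured by chromatin immunoprecipitation with sequencing in 3 groups of mouse bone marrow cells, which the design text calls leukemia cells. The groups were Prmt6KO cells (Prmt6-/-), Igf2bp2KO cells (Igf2bp2-/-) and WT cells, with 2 antibody libraries each. The 3 inputs were not analysed here. All groups were grown in medium with interleukin 3, interleukin 6 and stem cell factor. Chromatin came from formaldehyde-fixed, sonicated cells. The leukemia model, the strain and age of the mice, and how the alleles were made are not given in the sources used here. The labels do not tie replicate libraries to separate animals or cultures, so p-values measure only the spread between these libraries, which may be technical. Peak lists hold no expression values, so the labelled cell type was not checked.

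MFSD2A carries lysophosphatidylcholine, and with it docosahexaenoic acid and other long-chain fatty acids, across the plasma membrane. CD36 is a scavenger receptor that takes up fatty acids and oxidized lipoproteins in macrophages and other cells, and ABCG1 exports cholesterol to high-density lipoprotein. PRMT6 writes H3R2me2a, a mark known to oppose the trimethylation of lysine 4 of the same histone at promoters, and IGF2BP2 is an RNA-binding protein that reads m6A.

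The lists held 812414 and 430225 peaks in Prmt6KO, 961 and 1221 in Igf2bp2KO, and 162454 and 133960 in WT. A peak is a stretch that the authors' caller listed above its background. Background, the only depth measure the lists carry, was 0.737 and 1.21 fragments in Prmt6KO, 1.45 and 1.33 in Igf2bp2KO, and 1.46 and 1.44 in WT. The lowest listed summits were 2 and 3 fragments in Prmt6KO, 8 and 7 in Igf2bp2KO, and 4 and 4 in WT. Prmt6KO lists thus admitted lower summits than WT lists, and each count below is set beside the count expected from its own list's mean density. Counts of peaks with at least 5 fragments, a height above the floor of each Prmt6KO and WT list, are therefore given as well. WT replicate 1 stood apart on chromosome X, with a peak density of 0.192 times its list mean there, beside 0.966 and 1.21 times in Prmt6KO, 0.785 and 1.22 times in Igf2bp2KO, and 1.19 times in WT replicate 2. The 3 genes are on autosomes, and without that library the differences described below were 0.767 (Mfsd2a, 5 kb), 0.355 (Mfsd2a, 50 kb), 0.039 (Cd36, 5 kb), -0.26 (Cd36, 50 kb), 0.589 (Abcg1, 5 kb) and 0.604 (Abcg1, 50 kb).

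The promoters of Mfsd2a and Cd36 are shown because promoters are where this mark is known to act. The promoter set used here held no entry for Abcg1, so its promoter was not examined. Each line gives the RefSeq sequence (GRCm38.p6) of 250 bases before to 50 bases after the start site, 5′ to 3′, with CG dinucleotides in capitals. Mfsd2a and Cd36 lie on the minus strand, with windows at chr4:122961139-122961438 for Mfsd2a and chr5:17835847-17836146 for Cd36. The Cd36 window is the only one listed for that gene and lies inside its annotated span (17781690 to 17888959). The upstream end of that span was not examined as a promoter.
Mfsd2a promoter: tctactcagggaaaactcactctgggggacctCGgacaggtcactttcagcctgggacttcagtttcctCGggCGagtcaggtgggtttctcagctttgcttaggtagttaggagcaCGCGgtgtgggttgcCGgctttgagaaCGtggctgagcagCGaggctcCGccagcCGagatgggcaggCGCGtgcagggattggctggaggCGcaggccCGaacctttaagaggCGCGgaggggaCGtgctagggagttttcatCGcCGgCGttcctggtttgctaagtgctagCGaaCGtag
Cd36 promoter: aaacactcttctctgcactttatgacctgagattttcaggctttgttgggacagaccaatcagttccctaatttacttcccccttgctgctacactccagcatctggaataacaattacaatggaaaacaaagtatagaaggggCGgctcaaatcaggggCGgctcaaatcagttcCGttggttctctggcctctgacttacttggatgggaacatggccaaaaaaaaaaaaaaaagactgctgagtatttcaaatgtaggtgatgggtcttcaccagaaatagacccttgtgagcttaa
The Mfsd2a promoter held 22 CG dinucleotides and 60.3% G or C, and the Cd36 promoter held 3 and 43%. Of 32619 RefSeq promoters, 78.3% had no more CG dinucleotides than Mfsd2a and 31% no more than Cd36. Searched on both strands, CCAAT was in both windows and in 37.6% of all promoters, GGGCGG was in the Cd36 window and in 35.9% of all, and TATAAA (13.7% of all) and CACGTG (7.2% of all) were in neither window.

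No listed peak overlapped the Mfsd2a promoter in any of the 6 libraries. The nearest lay 909 bp downstream of the window in Prmt6KO replicate 1 (122960030 to 122960229) and 1029 bp upstream in Prmt6KO replicate 2 (122962468 to 122962727). In WT the nearest were 13.1 and 26.5 kb away. The listed Cd36 promoter window, inside the gene, was overlapped by 1 peak, in Prmt6KO replicate 1 (17835860 to 17836201). That peak had 2 fragments at its summit, a fold enrichment of 1.73 and a q of 1. A q is the caller's adjusted p, and the fold is the authors' ratio of summit to background, with 1 added to each. The nearest peaks to the Cd36 window in the other libraries were 2516 bp away in Prmt6KO replicate 2, and 2114 and 686 bp away in WT. The WT replicate 2 peak (17834941 to 17835160) held 7 fragments, with a fold of 3.28 and a q of 0.421.

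Empty promoters of this base composition were common. Of the 8361 promoters within 5 percentage points of the G and C content of Mfsd2a, 9.65% and 2.02% overlapped a peak in Prmt6KO, 0.0239% and 0.012% in Igf2bp2KO, and 0.574% and 0.275% in WT. Of the 8384 promoters like Cd36 in this respect, 20.9% and 9.27% overlapped a peak in Prmt6KO, 0.0954% and 0.0596% in Igf2bp2KO, and 3.78% and 1.94% in WT. In each Prmt6KO and WT library, the share was lower in each richer class when promoters were split into 3 classes by G and C content. The richest class had 6.37% and 1.11% in Prmt6KO and 0.316% and 0.0993% in WT, whereas the poorest had 19.3% and 9.63% in Prmt6KO and 4.01% and 2.67% in WT.

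**Figure D1:**
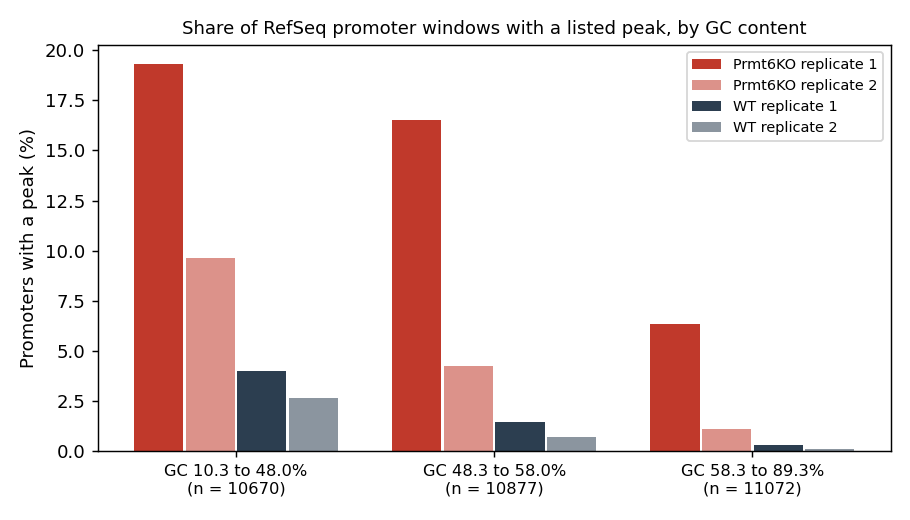
Share of RefSeq promoter windows (%) that overlapped a listed peak, on the y axis, in 3 classes of G and C content, for Prmt6KO and WT replicates (bars, 1 library each). Shares ran between 6.37% and 19.3% in Prmt6KO replicate 1, and between 0.316% and 4.01% in WT replicate 1, with the lowest share in the richest class.

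Mfsd2a (chromosome 4, 122946850 to 122961194, mm10) had peaks within 5 kb in both Prmt6KO libraries and in no other list. The counts were 6 and 3 in Prmt6KO, 0 and 0 in Igf2bp2KO, and 0 and 0 in WT. Mean density gave 7.60 and 4.03 expected peaks in Prmt6KO, 0.00906 and 0.0115 in Igf2bp2KO, and 1.52 and 1.25 in WT. The Prmt6KO counts were thus near or below their expectation, and the exact Poisson interval of a count of 0, 0 to 3.69 at 95%, held both WT expectations. All such intervals cover counting error only. A peak in both Prmt6KO libraries and in neither WT library was found within 5 kb of 14.5% of all genes.

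Observed over expected averaged 0.767 ± 0.0311 in Prmt6KO and 0 ± 0 in WT (SD, n = 2 each), a difference of 0.767. The groups did not overlap, as was so for 27% of all genes in this direction and 14% in the other. The two-sided exact permutation p was 0.333, the smallest that 6 splits allow. Genes without a peak in either WT library made up 20.3% of all genes, and genes with one in both Prmt6KO libraries 88.4%.

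The individual peaks near Mfsd2a were low. In Prmt6KO replicate 1 the summits held 2 to 4 fragments, and the tallest (122952606 to 122952821, inside the gene) had a fold of 2.88. In Prmt6KO replicate 2 they held 4, 5 and 5 fragments, with folds of up to 2.72. All had a q above 0.05, and none of the 6 peaks of replicate 1 overlapped any of the 3 of replicate 2. Over the whole Prmt6KO lists, 4034 of 812414 and 5784 of 430225 peaks had a q of 0.05 or below. Such a peak lay within 5 kb of 6.28% and 6.57% of all genes. Whole-list overlap with the other Prmt6KO replicate was 11.5% and 21.6%.

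Within 50 kb of Mfsd2a the genotypes had overlapping relative densities. The counts were 37 and 13 in Prmt6KO, 0 and 0 in Igf2bp2KO, and 8 and 3 in WT. Observed over expected was 1.05 and 0.694 in Prmt6KO and 1.13 and 0.514 in WT, so the groups overlapped. The mean was 0.87 ± 0.249 in Prmt6KO and 0.822 ± 0.436 in WT (SD, n = 2 each), and the two-sided exact permutation p was 1. The difference of 0.0472 turned to -0.129 without Prmt6KO replicate 1 and to -0.261 without WT replicate 2. It was also -0.771 over peaks with a fold of at least 3 (two-sided exact permutation p of 0.333, n = 2 each).

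Counted at equal height, peaks of 5 or more fragments within 5 kb of Mfsd2a numbered 0 and 2 in Prmt6KO and 0 and 0 in WT, so the groups overlapped. Expected were 0.554 and 1.95 in Prmt6KO and 1.42 and 1.15 in WT. Such peaks within 50 kb of Mfsd2a numbered 2 and 6 in Prmt6KO and 8 and 3 in WT. Expected were 2.58 and 9.08 in Prmt6KO and 6.60 and 5.36 in WT. A summit of 5 fragments was a fold of 3.46 and 2.72 in Prmt6KO and 2.44 and 2.46 in WT. Equal height was thus not equal fold, and the cut was strictest in Prmt6KO replicate 1. The nearest WT peaks lay 6594 bp (replicate 1, 122940057 to 122940256) and 12180 bp (replicate 2) from the gene. The surroundings of Mfsd2a were denser than the list mean in every Prmt6KO and WT library at 1 Mb, but not in every library at 250 or 5000 kb. Density in the 1 Mb either side, without the 50 kb window, was 1.17 and 1.36 times the list mean in Prmt6KO and 1.60 and 1.24 times in WT. With a flank of 250 kb, the gene included, the ratio was 1.10 and 0.963 in Prmt6KO and 0.818 and 0.687 in WT, and with 5000 kb it was 1.00 and 0.783 in Prmt6KO and 0.828 and 0.657 in WT. At the 1 Mb density, 8.88 and 5.46 peaks were expected within 5 kb in Prmt6KO and 2.44 and 1.55 in WT. Taken alone, each WT count of 0 was within counting error of its expectation there as well, but the WT libraries were not assessed together. Mycl, which encodes a transcription factor of the MYC family, was the only other protein-coding gene within 50 kb, 34.4 kb away.

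**Figure D2:**
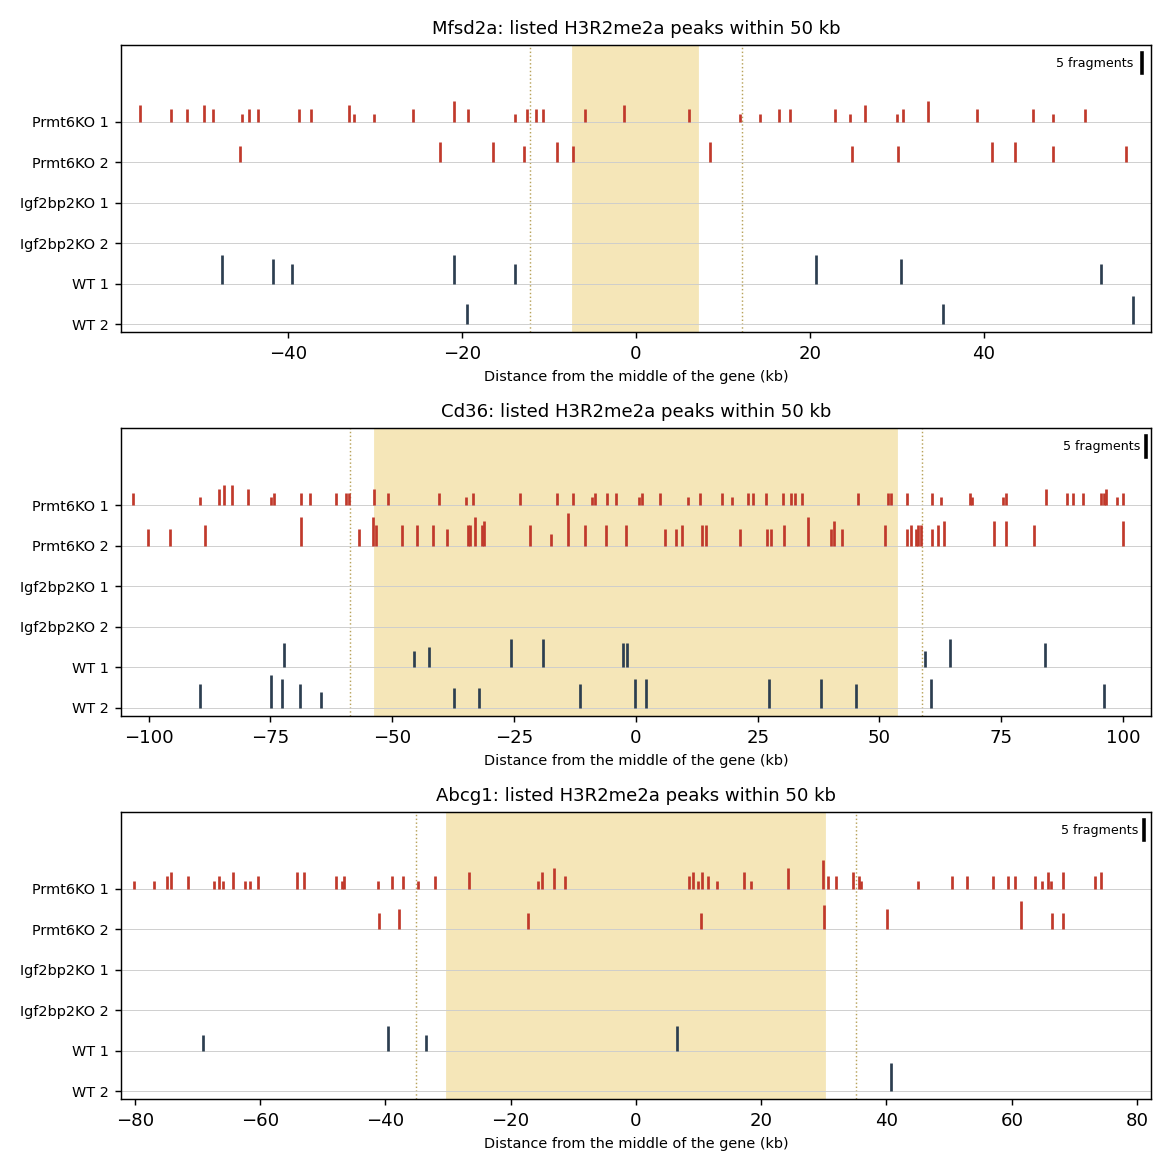
Listed peaks within 50 kb of each gene, 1 row per library with Prmt6KO above Igf2bp2KO and WT. The x axis is the distance of the summit from the middle of the gene (kb), tick height the fragments at the summit (scale bar, 5 fragments), shading the gene and dotted lines 5 kb either side. Mfsd2a had 6 and 3 peaks between the dotted lines in Prmt6KO and 0 in each WT row.

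Cd36 (chromosome 5, 17781690 to 17888959) carried peaks in both Prmt6KO and both WT libraries. Within 5 kb there were 30 and 37 in Prmt6KO, 0 and 0 in Igf2bp2KO, and 6 and 8 in WT. Expected were 36.3 and 19.2 in Prmt6KO, 0.043 and 0.0546 in Igf2bp2KO, and 7.26 and 5.98 in WT. Prmt6KO replicate 2 stood above its expectation, at 1.93 (exact Poisson interval 1.36 to 2.65), and 95.4% of all genes had a ratio no higher in that library. The other ratios were 0.827 in Prmt6KO replicate 1, and 0.827 and 1.34 in WT.

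The mean over the gene and 5 kb was 1.38 ± 0.777 in Prmt6KO and 1.08 ± 0.361 in WT (SD, n = 2 each), with a two-sided exact permutation p of 1. The difference of 0.294 was smaller than the spread between the Prmt6KO libraries and was -0.255 without Prmt6KO replicate 2 and 0.843 without Prmt6KO replicate 1. Over peaks with a fold of at least 3 it was -0.998, and over peaks with a q of 0.05 or below 1.93, from 1 peak. Within 50 kb, counts were 58 and 48 in Prmt6KO and 10 and 15 in WT. The ratios there were 0.905 and 1.41 in Prmt6KO and 0.781 and 1.42 in WT, which overlapped. Their difference was 0.0598 (two-sided exact permutation p of 1, n = 2 each), -0.195 without Prmt6KO replicate 2 and -0.26 without WT replicate 1. It was -0.656 over peaks with a fold of at least 3, and 1.09 over peaks with a q of 0.05 or below, from the same peak. Density in the 1 Mb either side of Cd36 was 0.926 and 1.20 times the list mean in Prmt6KO and 1.16 and 1.49 times in WT. At that density 59.3 and 40.9 peaks were expected within 50 kb in Prmt6KO and 14.9 and 15.7 in WT. The difference was then 0.263, with a two-sided exact permutation p of 0.333 (n = 2 each), and within 5 kb it was 0.44.

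The tallest peak of Prmt6KO at Cd36 lay inside the gene. It was in replicate 2 (17821127 to 17821575), with 8 fragments, a fold of 4.07 and a q of 0.0304, and no other list overlapped it. Peaks of 5 or more fragments within 50 kb numbered 2 and 33 in Prmt6KO and 8 and 14 in WT, against 4.67 and 16.4 expected in Prmt6KO and 12 and 9.70 in WT. The tallest WT peak was in replicate 2 outside the gene (17760315 to 17760521), with 8 fragments, a fold of 3.69 and a q of 0.119. Both Prmt6KO lists and WT replicate 2 shared a region on each side of the gene. On the low-coordinate side the peaks were 17766248 to 17766943 and 17766460 to 17766715 in Prmt6KO and 17766242 to 17766759 in WT. On the other side they were 17895930 to 17896129 and 17895924 to 17896170 in Prmt6KO and 17895750 to 17895958 in WT. No other protein-coding gene lay within 50 kb of Cd36.

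**Figure D3:**
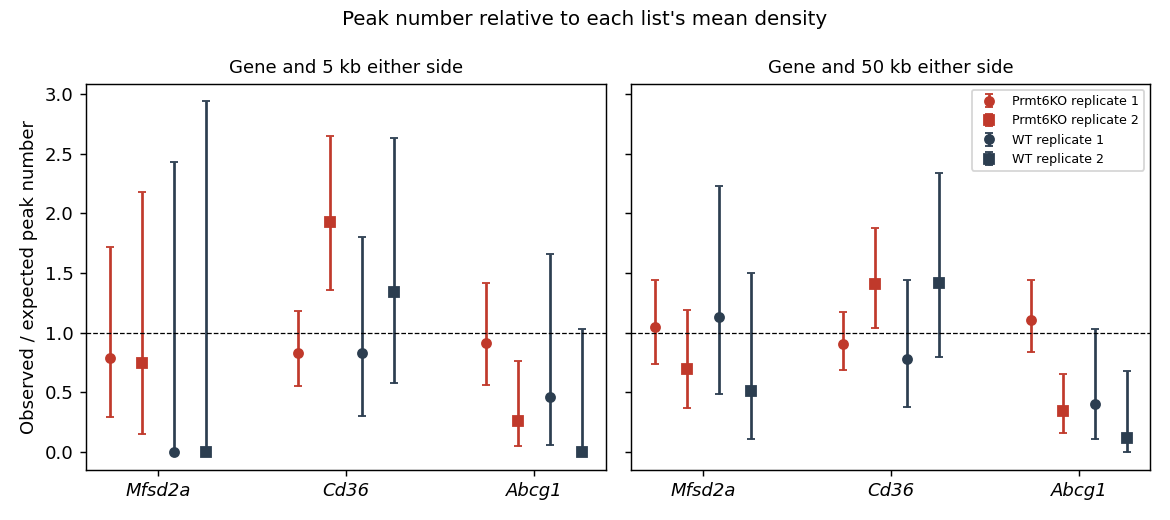
Observed over expected peak number by library for the 3 genes, within 5 kb and 50 kb of each. Points are single libraries. For Mfsd2a within 5 kb, Prmt6KO lies at 0.789 and 0.745 and WT at 0, and for the other genes and windows the genotypes' points overlap.

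Abcg1 (chromosome 17, 31057694 to 31117984) was sparse in 3 of the 4 Prmt6KO and WT libraries. Within 50 kb there were 55 and 9 peaks in Prmt6KO, 0 and 0 in Igf2bp2KO, and 4 and 1 in WT. Expected were 49.6 and 26.3 in Prmt6KO, 0.0587 and 0.0746 in Igf2bp2KO, and 9.91 and 8.17 in WT. The ratio was 1.11 in Prmt6KO replicate 1 (exact Poisson interval 0.836 to 1.44) and 0.343 in Prmt6KO replicate 2 (0.157 to 0.651), so these libraries differed by more than counting error. WT had 0.404 (0.11 to 1.03) and 0.122 (0.0031 to 0.682). The two-sided exact permutation p of the difference, 0.463, was 0.667 (n = 2 each), and the groups overlapped. That difference was 0.0799 without Prmt6KO replicate 1 and 0.847 without Prmt6KO replicate 2.

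Within 5 kb of Abcg1 the counts were 20 and 3 in Prmt6KO and 2 and 0 in WT. The ratio averaged 0.589 ± 0.465 in Prmt6KO and 0.23 ± 0.325 in WT (SD, n = 2 each), a difference of 0.359 with a two-sided exact permutation p of 0.667. It was 0.0305 without Prmt6KO replicate 1 and at most 0.688 with any other library left out. The 1 Mb either side was also below the list mean, at 0.955 and 0.612 in Prmt6KO and 0.580 and 0.476 in WT. With the expectation taken from 250 kb either side, the 50 kb difference was -0.143. Over peaks with a fold of at least 3, the difference was 1.23 within 5 kb (two-sided exact permutation p of 0.333, n = 2 each) and 0.386 within 50 kb. The share of all genes whose groups did not overlap at this threshold was not computed. Peaks of 5 or more fragments within 50 kb numbered 3 and 4 in Prmt6KO and 2 and 1 in WT, against 3.62 and 12.7 expected in Prmt6KO and 9.25 and 7.50 in WT.

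Abcg1 carried the peak with the lowest q of the 3 genes. It lay at the higher-coordinate end of the gene in Prmt6KO replicate 1 (31117609 to 31117891), with 7 fragments, a fold of 4.61 and a q of 0.0097. A Prmt6KO replicate 2 peak overlapped it (31117700 to 31117967), with 6 fragments, a fold of 3.17 and a q of 0.443, and no WT peak did. Across all genes, 2.59% had such a peak within 5 kb: q of 0.05 or below in 1 Prmt6KO library, overlapped in the other and in no WT library, a rule set after this peak was seen. The neighbours within 50 kb were Umodl1 and the trefoil factor genes Tff3, Tff2 and Tff1. Tff3, 7.32 kb away, was the closest.

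**Figure D4:**
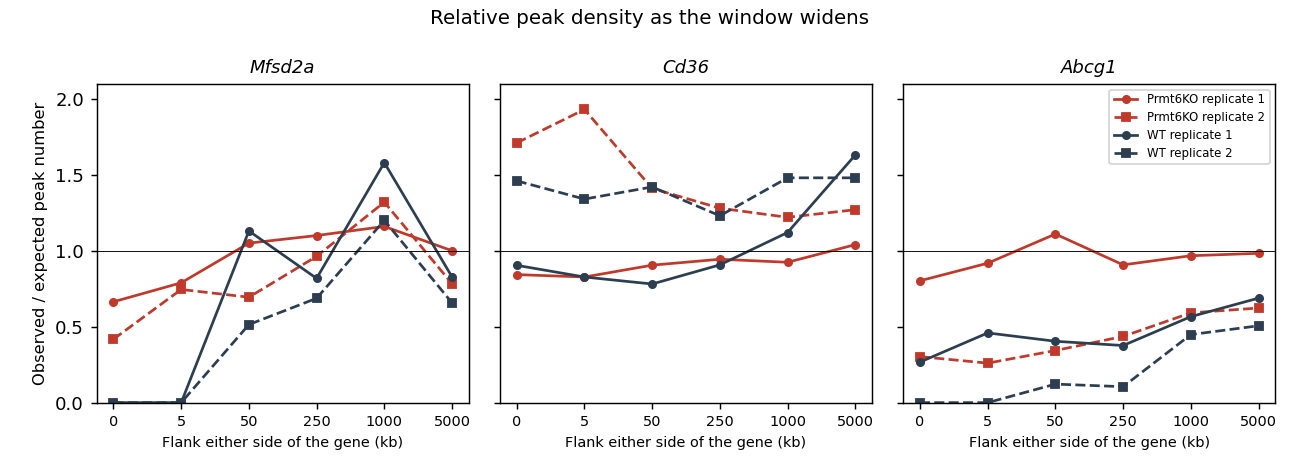
Observed over expected peak number (y axis) as the flank either side of the gene widens (x axis, 0 to 5000 kb, steps not to scale), for Prmt6KO and WT replicates. Mfsd2a in WT is at 0 with 0 and 5 kb flanks and at 1.58 and 1.20 with 1000 kb, where Prmt6KO is at 1.16 and 1.32.

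Igf2bp2KO had no peak within 50 kb of any of the 3 genes. Its lists were so short that no more than 0.0964 peaks were expected there, so a loss against WT could not be seen in them. The listed summits began at 8 and 7 fragments in Igf2bp2KO and at 4 and 4 in WT, while the backgrounds were 1.45 and 1.33 in Igf2bp2KO and 1.46 and 1.44 in WT. The nearest peaks were 0.921 and 4.4 Mb from Mfsd2a, 2.07 and 2.07 Mb from Cd36, and 8.73 and 8.02 Mb from Abcg1. Cd36 had peaks within 5 kb in both WT libraries and in neither Igf2bp2KO library, as had 47.9% of all genes. In the opposite direction the share was 0% of all genes, and no member met it.

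Few peaks near the 3 genes were shared between replicates. Of the 22 and 19 WT peaks within 50 kb of the 3 genes, 0 and 0 overlapped a peak of the other WT library, against 6.06% and 7.34% over the whole lists. In Prmt6KO, 17 of 150 (11.3%) and 17 of 70 (24.3%) did so, against 11.5% and 21.6% over the whole lists. Of the Prmt6KO overlaps, 10 were at Cd36, 4 at Abcg1 and 3 at Mfsd2a. They made up 17.2% and 20.8% of the Cd36 peaks of replicates 1 and 2. At Abcg1 the shares were 7.27% and 44.4%, the latter out of 9 peaks, and at Mfsd2a 8.11% and 23.1%. Of the 22 peaks of WT replicate 1, 4 and 0 were overlapped in Prmt6KO, and of the 19 of WT replicate 2, 6 and 2.

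Patterns of observed over expected within 50 kb were compared by Euclidean distance over the 4 Prmt6KO and WT libraries. Only genes on other chromosomes or over 1 Mb away were candidates, so likeness to nearer genes was not tested. For Mfsd2a the most alike were Tox4 (distance 0.0492), Ankrd40 (0.0511) and Alad (0.0632), among 10045 genes with a window of a length within 10%. For Cd36 they were Esyt2 (0.252), Tacr3 (0.261) and Plppr5 (0.283) among 1106. For Abcg1 they were Smad6 (0.082), Fam219a (0.0876) and Hdac7 (0.0954) among 2182. The nearest neighbours of Cd36 were thus farther from it than those of the other genes, among fewer candidates.

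A list of 58 lipid transport genes, the members among them, set Mfsd2a beside its pathway. In 11 of them (19%), a peak lay within 5 kb in both Prmt6KO libraries and in neither WT library, beside 14.5% of all genes. The count was 24 without WT replicate 1, 5 over peaks with a fold of at least 3, and 1 over peaks with a q of 0.05 or below. Shares of all genes under these changed rules were not computed. In WT replicate 2 alone, 40.1% of all genes had no peak within 5 kb. The opposite pattern held for 0 of 58, beside 0.0693% of all genes, and for 1 without Prmt6KO replicate 1. Ratios in Prmt6KO were above both WT ratios for 17 genes (29.3%, beside 27% of all genes) and below both for 5 (8.62%, beside 14%). The median ratio of the list was 0.95 and 0.588 in Prmt6KO and 0.554 and 0 in WT. Over all genes it was 1.00 and 0.735 in Prmt6KO and 0.737 and 0.543 in WT.

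By role, fatty acid and lysolipid transporters made up 5 of the 11, out of 11 such genes (14.5% of all genes met the rule). Beside Mfsd2a these were Slc27a1 and Slc27a3, which encode fatty acid transport proteins, Spns1, a lysosomal lysophospholipid transporter, and Spns2, an exporter of sphingosine 1-phosphate. Slc27a3 had 5 and 3 peaks in Prmt6KO and 0 and 0 in WT, with highest folds of 2.30 and 3.17 in Prmt6KO. Spns1 had 6 and 3 in Prmt6KO and 0 and 0 in WT, Slc27a1 7 and 2 in Prmt6KO and 0 and 0 in WT, and Spns2 8 and 1 in Prmt6KO and 0 and 0 in WT. The rule fixes the WT zeros. Spns2 had ratios of 0.533 and 0.126 in Prmt6KO, below the 0.789 and 0.745 of Mfsd2a.

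Intracellular fatty acid binding proteins contributed Fabp2 and Fabp6, 2 of 7. Fads1, a fatty acid desaturase, was 1 of 8 genes of polyunsaturated fatty acid synthesis. Cpt1a, which passes long-chain fatty acids into mitochondria, was 1 of 8 import genes. Srebf1, a transcription factor of lipid synthesis, was 1 of 8 such factors. No acyl-CoA synthetase (0 of 5) and no sterol or phospholipid exporter (0 of 6, Abcg1 among them) met the rule. The rule needs WT counts of 0, and the expected WT count rises with gene length. The synthetase genes were 44.8 to 72.8 kb long, against 14.3 kb for Mfsd2a, though Cpt1a met the rule at 63.4 kb. The exporter genes were 15.5 (Abcg4) to 129 kb (Abca1) long, so some were near Mfsd2a in length and did not meet it. Whether length accounts for the differences between roles was not tested. The 5 genes with lower ratios in Prmt6KO than in both WT libraries, named after their values were seen, were Slc27a5, Abca7, Abcd2, Abcd3 and Pparg. A peak with a q of 0.05 or below, overlapped in the other Prmt6KO library and in no WT library, lay within 5 kb of 4 of the 58 genes (6.9%, beside 2.59% of all genes). These were Abcg1, Scarb1, Pparg and Acsl4, again named after their values were seen. The rule itself was set after the Abcg1 peak was seen, so Abcg1 was bound to meet it. The 4 genes were 60.3 to 130 kb long, and gene length was not allowed for. The share of the list is therefore no result about it.

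**Figure D5:**
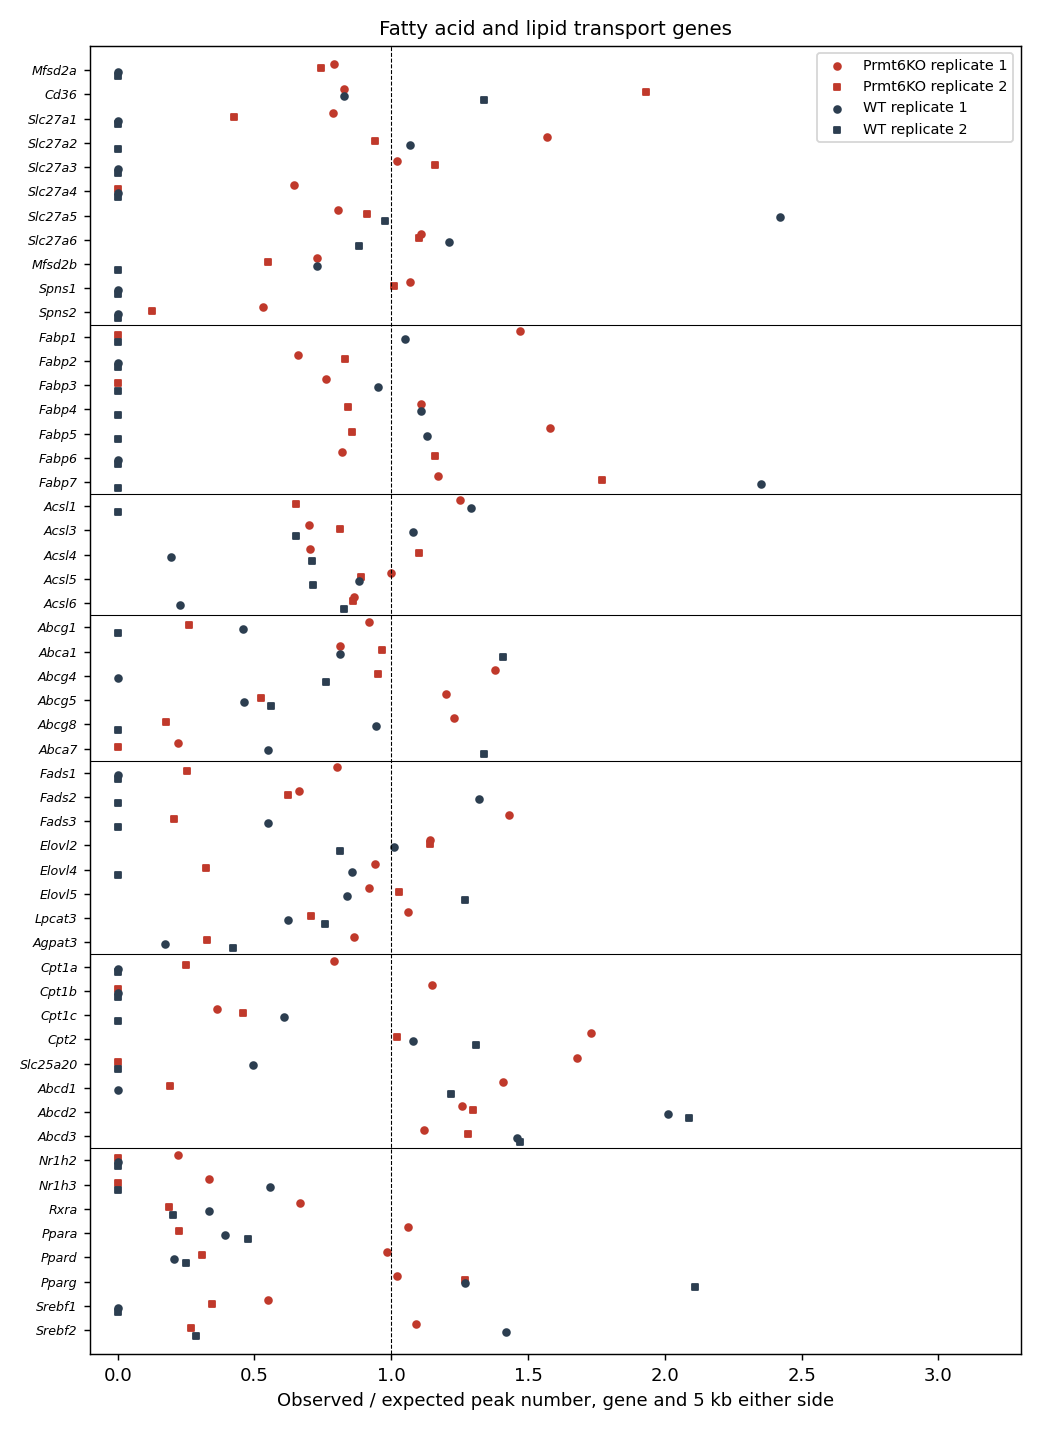
Observed over expected peak number within 5 kb (x axis) for 53 genes of 7 role groups of the lipid transport list (y axis, lines between role groups), 1 point per Prmt6KO or WT library. Mfsd2a has Prmt6KO points at 0.789 and 0.745 and both WT points at 0, and 9 other genes plotted have both WT points at 0 and both Prmt6KO points above 0.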

How the data were processed

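H3R2me2a peak lists of 6 libraries were used, 1 list per library. Tools named in the submitters' processing notes are MACS2 2.1.0, HISAT2, bedtools, Trim Galore and bcl2fastq 2.17, with the build mm10; settings are not given in the sources used here. The deposited lists give each peak a fold enrichment and the authors' −log10 of its p-value and q-value. That fold is the ratio of summit to background, with 1 added to each. The deposited companion tables give the summit pileup, a coverage signal that is in fragments, or in the Igf2bp2KO lists in multiples of 0.277 and 0.302 of a fragment, and was divided by these steps. Total reads are not given in the sources used here.

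Python 3.11.15, numpy 2.4.6, pandas 2.3.3, scipy 1.17.1 and matplotlib 3.10.9 were used. Groups came from sample titles and gene positions from RefSeq GRCm38.p6, which is mm10. A peak counted when at least 1 bp overlapped the window. Expected counts were the list's peaks times the window plus mean peak width less 1 bp, over 2632 Mb, where chromosome lengths are the highest listed peak or gene end. The 6 differences between Prmt6KO and WT were compared by two-sided exact permutation tests, whose lowest Benjamini-Hochberg adjusted value was 1. The procedure was tested on simulated data. Members, lists and tests were chosen with earlier results of these data known. Named were the members and the genes within 50 kb of them. Genes of the lipid list with a peak within 5 kb in both libraries of 1 genotype and neither of the other were also named. The 3 genes most alike to each member, among those over 1 Mb away or on other chromosomes, were named too. Of the list, 1 role group of the list is counted in the totals and not reported here by gene or plotted, apart from Scarb1. Alternatives were the peak threshold, peak position by summit, the source of the expectation, leaving out a library, and a replicate block.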

Additional observations from a re-analysis of the deposited data

How the results depend on the processing

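Over the 6 differences in observed over expected, 69 of 81 alternatives kept the direction, and no p could fall below 0.333. Some of these outcomes were fixed in advance, so the tally does not measure robustness. The replicate block cannot change a difference. For Mfsd2a within 5 kb, where both WT counts were 0, no alternative could reverse the direction. A fold of at least 3 took summits of 5 and 6 fragments in Prmt6KO, and of 7 in each WT library. With that threshold, the difference was -0.771 for Mfsd2a within 50 kb. For Cd36 it was -0.998 and -0.656 within 5 and 50 kb, whereas for Abcg1 it was 1.23 and 0.386. Over peaks with a q of 0.05 or below, it was 1.93 and 1.09 for Cd36 and 4.6 and 2.03 for Abcg1. At each gene that rested on 1 peak, in 1 Prmt6KO library. For Mfsd2a within 50 kb it was -0.00114 over summits at least 3 times their background, -0.323 with the expectation from 250 kb and -0.112 from 5 Mb either side. For Abcg1 within 50 kb it was -0.143 with the expectation from 250 kb. Leaving out a library gave 0.745 to 0.789 (Mfsd2a, 5 kb), -0.261 to 0.355 (Mfsd2a, 50 kb), -0.255 to 0.843 (Cd36, 5 kb), -0.26 to 0.379 (Cd36, 50 kb), 0.0305 to 0.688 (Abcg1, 5 kb) and 0.0799 to 0.847 (Abcg1, 50 kb). The causes were not tested. The 11 list genes with peaks in Prmt6KO alone became 5 with a fold of at least 3, 1 with a q of 0.05 or below, and 11 to 24 with a library left out. Shares of all genes under these settings were not computed. The 0 list genes with peaks in WT alone became 0 to 1 with a library left out. With a replicate block the differences were the same (0.767 for Mfsd2a within 5 kb), with a lowest sign-flip permutation p of 0.5. Replicate 2 minus replicate 1 correlated at 0.164 across genes between Prmt6KO and WT, and 2 pairs do not show that the numbers pair the libraries. For 3 combinations no peak was left in any library: Mfsd2a within 5 kb under either threshold (q or fold), and Mfsd2a within 50 kb at a q of 0.05 or below. The lists bound what can be seen, since peaks of 2 fragments were listed in a Prmt6KO library and none under 4 in WT.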

Other observations

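The libraries that shared a replicate number moved the same way at all 3 genes, as they did at 60.1% of all genes. Within 50 kb, the ratio of replicate 2 minus that of replicate 1 was -0.352 in Prmt6KO and -0.617 in WT at Mfsd2a, where 35.1% of all genes in Prmt6KO and 13.1% in WT had no higher difference. At Cd36 it was 0.509 in Prmt6KO and 0.639 in WT, where 94.9% of all genes in Prmt6KO and 91.4% in WT had no higher difference. At Abcg1 it was -0.767 in Prmt6KO and -0.281 in WT, and 2.31% of all genes in Prmt6KO and 34.5% in WT had no higher difference. The labels do not say that a number marks a shared day or culture.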
